A study of Rattus norvegicus with 12 samples.

Results

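The genes described here were 37 genes of the endoplasmic reticulum (ER) stress response and of the amino acid response driven by ATF4, read in rat optic nerve head astrocytes given epidermal growth factor (EGF). The members were the rows of the deposited value table whose gene symbol in the array's annotation was on the list of 37, with the probe set of the highest mean signal over the 12 arrays standing for each gene. Of the 37 genes, 36 had a probe set, 50 probe sets in all, and all 36 passed the limit on dim probe sets. They were 36 of the 10261 genes tested. The kinase Ern1 (IRE1) was not on any probe set with its symbol and is not analysed here. The list held 15 genes of protein folding, 2 of translocation into the ER, 4 stress sensors and transducers, 6 of degradation, and 10 of the ATF4 arm.

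The cells were primary astrocyte cultures from the optic nerve head of the rat, where the fibres of the retina's ganglion cells pass out of the eye. The groups were EGF for 4 h and its control, and EGF for 12 h and its control, with 3 arrays in each, 12 in all. Each array measured biotin-labelled RNA of 1 sample in a single colour, and the question put was how astrocytes respond when the EGF receptor is activated. The dose of EGF and what the control cultures received are not given in the labels, which also do not say whether the 3 arrays of a group came from separate cultures, so p-values measure the spread between these arrays, which may be technical.

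Secreted and membrane proteins are folded in the ER by chaperones, which bind unfolded chains, and by disulfide isomerases and lectins. When unfolded protein builds up, the sensors ATF6, IRE1 and PERK raise the transcription of chaperones, of the translocation channel and of the machinery that sends misfolded chains back to the cytosol for degradation. PERK and other kinases also phosphorylate the initiation factor eIF2, which slows most translation but favours that of the transcription factor ATF4. ATF4 switches on amino acid transporters, enzymes of amino acid synthesis and feedback regulators, and lack of amino acids reaches it without any stress in the ER. The ATF4 and XBP1 proteins are set largely by translation and by splicing of the mRNA, which these arrays do not measure.

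Signals are the deposited MAS5 intensities in arbitrary units, and log2 fold changes are of signal + 24.4, each with its standard error (SE) and an adjusted p from limma over all 18625 probe sets tested. The actin 3' to 5' ratio, which is high where the labelled RNA reaches less far from its 3' end, ran from 11.1 to 21.7 over the 3 control arrays and EGF replicates 1 and 2 of 12 h. That ratio was 1.24 on EGF replicate 3 of 12 h and 1.20 to 1.61 on the 6 arrays of 4 h. On replicate 3 of 4 h, the hybridisation control signal was 6185 with EGF and 7254 in the control, and no other array exceeded 108.1. For several members, results at 12 h are therefore also given without EGF replicate 3. Values given only with that array may move without it too. Among the markers of the labelled cell type, Gfap, Aqp4, Slc1a2 and Aldh1l1 lay below the limit on dim probe sets, and 5 of the 9 measured astrocyte markers lay above it. All 5 fibroblast markers lay above that limit, with summed signals of 23654 to 70902 on EGF arrays of 12 h and 54604 to 67714 on their controls. At 4 h the sums were 60882 to 69540 on EGF arrays against 71724 to 89654 on controls. Col1a1 carries a large share of that sum, and by gene 2 of the 5 were lower with EGF at 4 h and 3 of 5 at 12 h, with median log2 fold changes of -0.47 and -1.26. Dcn averaged 2897 ± 392.7 with EGF and 24104 ± 5051 in controls at 12 h, a log2 fold change of -3.03 ± 0.16 (adjusted p = 1.9e-08), and Pdgfra 1703 ± 109.9 with EGF and 4110.2 ± 351 in controls, a log2 fold change of -1.26 ± 0.15 (adjusted p = 3e-05; SD, n = 3 each). The 1 endothelial marker above it was Tek, and the summed endothelial signal was 1029 to 1417 with EGF against 2399 to 2786 in controls at 4 h, and 905.5 to 1425 against 2344 to 2920.0 at 12 h. The oligodendrocyte sum was 2991 to 3534 with EGF against 5968 to 6979 in controls at 4 h, and 3892 to 5236 against 8849 to 9414 at 12 h. Cnp and Mbp were lower with EGF at both times. Mag did not pass, at 268.9 ± 33.8 with EGF and 174 ± 22.7 in controls of 12 h. The microglial sum, with 3 of 6 markers above the limit, was 727.6 to 881 with EGF against 928.8 to 1031 in controls at 4 h, and 1462 to 2004 against 624.9 to 885 at 12 h. That rise was in Cd68, at 924.1 ± 114.4 with EGF and 62.1 ± 62.5 in controls of 12 h, while the other 2 tested markers did not pass, among them Aif1 at 234.4 ± 68.3 with EGF and 239.6 ± 36.5 in controls. Cd68 lay above the limit only through the EGF arrays of 12 h. At 4 h it averaged 72.4 with EGF and 47.2 in controls. The Schwann cell sum of 2 markers was 18855 to 19983 with EGF against 16253 to 18166 in controls at 4 h, and 6318 to 8137 against 8780 to 10888 at 12 h, and 0 of 5 neuronal markers lay above the limit. Pmp22 made up most of the Schwann cell sum. Prx went the other way at 4 h, at 1122.3 ± 107.5 with EGF and 1473 ± 199.5 in controls. Neither passed at 4 h, and both were lower with EGF at 12 h. The part of other cell types in the results was not tested, and in bulk RNA fewer cells of a type and less RNA per cell cannot be told apart.

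After 4 h of EGF few members had moved, and most of those that had lay in the ATF4 arm or in degradation. The amino acid transporter genes Slc7a5 and Slc7a11, the phosphatase subunit gene Ppp1r15a and the transcription factor gene Xbp1 rose, and Herpud1, Trib3, Sel1l, Dnajb9, Phgdh and Pdia4 fell. After 12 h of EGF, 19 members were higher than in the controls of that time. These included Atf4 itself and 6 of its arm, both listed subunits of the translocation channel and 6 folding genes. The transducers Xbp1 and Eif2ak3 and the degradation genes Edem1 and Sel1l were higher too. Herpud1, Dnajb9 and Slc3a2 were lower.

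At 4 h, 4 of 36 members were higher with EGF, 11.1%, against 12.8% of all genes tested. Another 6 members were lower, 16.7%, against 19.6% of all genes, so both shares lay near the background. With each array centred on its median, which moved the median log2 fold change of all probe sets from -0.15 to 0.04, 5 members were higher and 1 lower. The median log2 fold change of the members at 4 h was -0.15, beside -0.17 over all genes. At 12 h, 19 members were higher with EGF, 52.8%, against 16.5% of all genes, and 3 were lower, 8.33%, against 24.2%. The members' median at 12 h was 0.55 and that of all genes -0.09. The list was chosen with earlier results of these data known, so these shares are not an independent test of it. The members are brighter than many of the genes behind these shares, with mean signals from 1067 to 50281 against a limit of 215 for testing. Without EGF replicate 3 of 12 h, 19 members were again higher and 3 lower at 12 h, with a median of 0.40, and 9 rather than 6 were lower at 4 h.

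By array, 20 members had all EGF arrays above all controls at 12 h, 55.6% against 20.9% of all genes tested, and 4 had them below, 11.1% against 31.8%. At 4 h 6 members had them above, 16.7% against 19.4%, and 12 below, 33.3% against 33.3%, so both shares lay near the background.

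The EGF effects of the 2 times rest on separate control arrays, so their difference was tested directly. That difference was positive in 11 members, 30.6%, against 6.55% of all genes, and negative in 1 member, Slc3a2, 2.78%, against 7.45%. Without EGF replicate 3 of 12 h, 16 were positive and 2 negative. The members' median difference was 0.49 and that of all genes 0.04. Sel1l and Trib3 were lower with EGF at 4 h and higher at 12 h, and Xbp1, Ppp1r15a, Slc7a11 and Slc7a5 were higher at both times. Dnajb9 and Herpud1 were lower at both times. Another 13 members were higher at 12 h without passing the test at 4 h, and 12 passed at neither time.

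**Figure D1:**
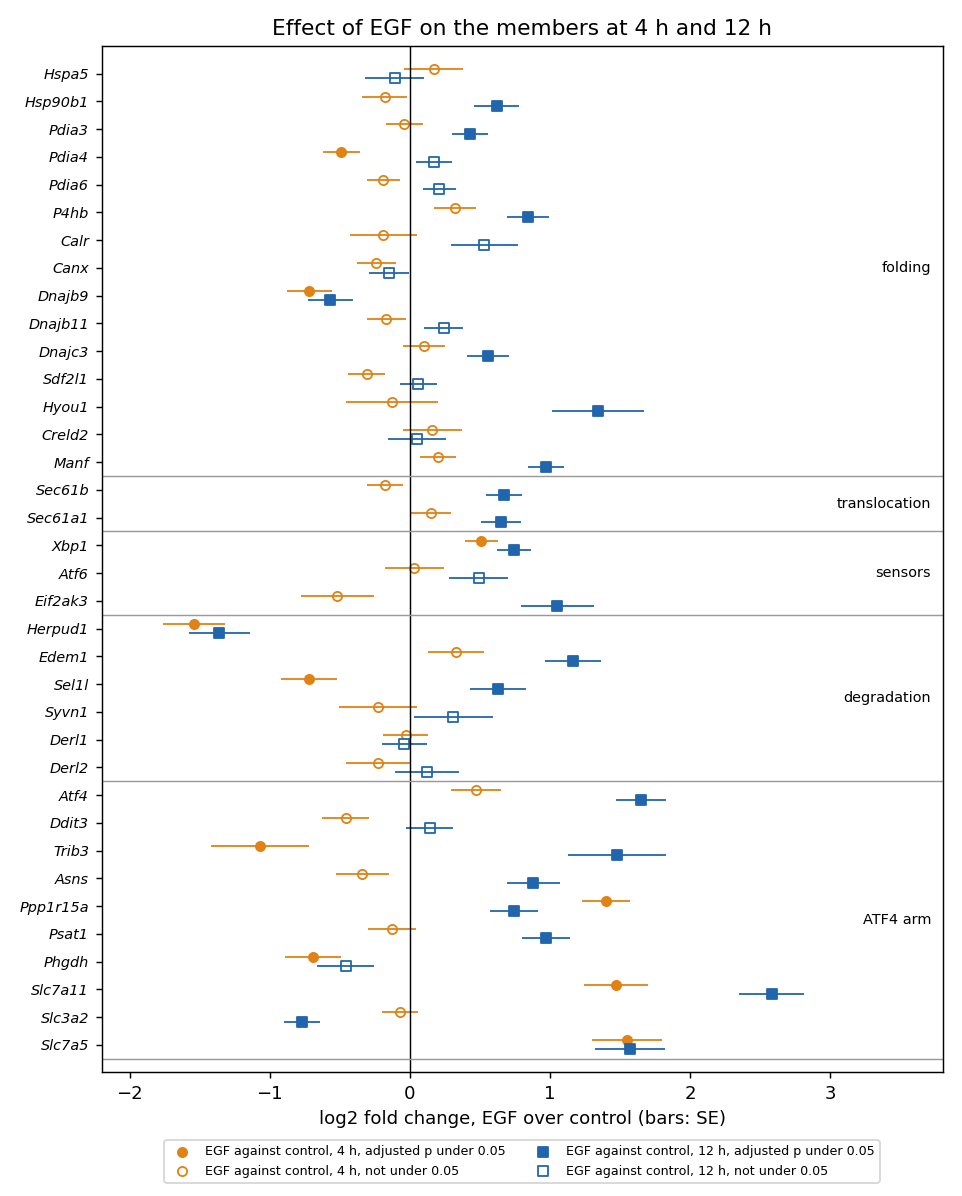
Log2 fold change of EGF over control for the 36 members, with SE bars, at 4 h (orange circles) and at 12 h (blue squares). Filled symbols have an adjusted p under 0.05. Most filled squares lie to the right of 0, from 0.43 in Pdia3 to 2.58 in Slc7a11, and those of Herpud1, Dnajb9 and Slc3a2 lie to the left.

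Among the folding genes, 2 of 15 were lower at 4 h and the other 13 did not pass, while 6 were higher and 1 lower at 12 h. The share lower at 4 h was 13.3%, against 19.6% of all genes, and the shares higher and lower at 12 h were 40% and 6.67%, against 16.5% and 24.2%. Their median log2 fold change was -0.17 at 4 h and 0.24 at 12 h. With the set of arrays, told apart by time and the array control probe sets, as a block, 4 were lower at 4 h and 10 higher at 12 h. The share of all genes under that block is not given. Among the further pathway genes described below, that block moved the count higher at 12 h from 53 to 67. It moved the count lower from 13 to 20 at 12 h and from 17 to 31 at 4 h. Hspa5, the Hsp70 chaperone BiP and the usual readout of ER stress, was not among the folding genes that passed. Its signal was 42663, 45697 and 57656 with EGF and 37078, 41344 and 52014 in controls at 4 h. At 12 h it was 41304, 50963 and 27086 with EGF and 37038, 44237 and 43916 in controls. The EGF and control arrays overlapped at both times, and the lowest of the 12 values was that of EGF replicate 3 of 12 h. For Hspa5, the log2 ratio of EGF over control was 0.17 ± 0.21 (adjusted p = 0.608) at 4 h and -0.11 ± 0.21 (adjusted p = 0.711) at 12 h. The 12 h value was 0.14 without EGF replicate 3 (adjusted p = 0.551).

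The promoter of Hspa5 is the textbook site of the ER stress element (ERSE), which ATF6 and XBP1 bind. The 250 bases before its annotated start, from RefSeq on build GRCr8, chr3:38452766-38453015, plus strand, hold 1 exact match to the full element, shown in capitals. Imperfect copies were not searched for.
Hspa5: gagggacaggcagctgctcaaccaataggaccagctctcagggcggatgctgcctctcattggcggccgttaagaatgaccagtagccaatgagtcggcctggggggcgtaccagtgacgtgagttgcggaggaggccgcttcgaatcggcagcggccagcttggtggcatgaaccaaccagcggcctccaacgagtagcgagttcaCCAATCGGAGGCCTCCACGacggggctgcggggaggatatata
The ERSE was searched as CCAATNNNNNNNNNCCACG on both strands of the window from 250 bases before to 50 bases after each start. Promoters were at hand for 30 of the 37 members, and Pdia3, Pdia6, Manf, Sec61a1, Atf6, Ern1 and Derl1 had none in the table. The element stood in 7 member promoters and in 22 of all 33469 promoters, 0.0657%. The element was defined on chaperone promoters, so its presence in these genes is background and not a finding. The 8 matches, each read on the strand that gives CCAAT first, with the fixed letters in capitals, were as follows.
Hspa5: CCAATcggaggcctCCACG
Hsp90b1, upstream match: CCAATcgaaaggagCCACG
Hsp90b1, downstream match: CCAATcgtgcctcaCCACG
Calr: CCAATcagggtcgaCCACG
Canx: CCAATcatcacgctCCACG
Dnajc3: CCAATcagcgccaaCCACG
Creld2: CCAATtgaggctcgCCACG
Xbp1: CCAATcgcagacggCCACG
Of the 7 genes that carry these matches, Hsp90b1, Dnajc3 and Xbp1 were higher with EGF at 12 h, and Hspa5, Calr, Canx and Creld2 did not pass the test. Of all genes tested, 16.5% were higher at 12 h. Whether the element goes with the response to EGF was not tested. The shorter form ERSE-II, ATTGGNCCACG, stood in the promoters of Dnajb11, Hyou1 and Herpud1 and in 17 of all promoters, 0.0508%. Of these 3 genes, Hyou1 was higher at 12 h, Herpud1 lower, and Dnajb11 did not pass the test. The XBP1 site UPRE, TGACGTGG, stood in Hyou1 alone of the members, overlapping its upstream ERSE-II match, and in 0.595% of all promoters. A match is a string of letters and not a measured binding site.

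**Figure D2:**
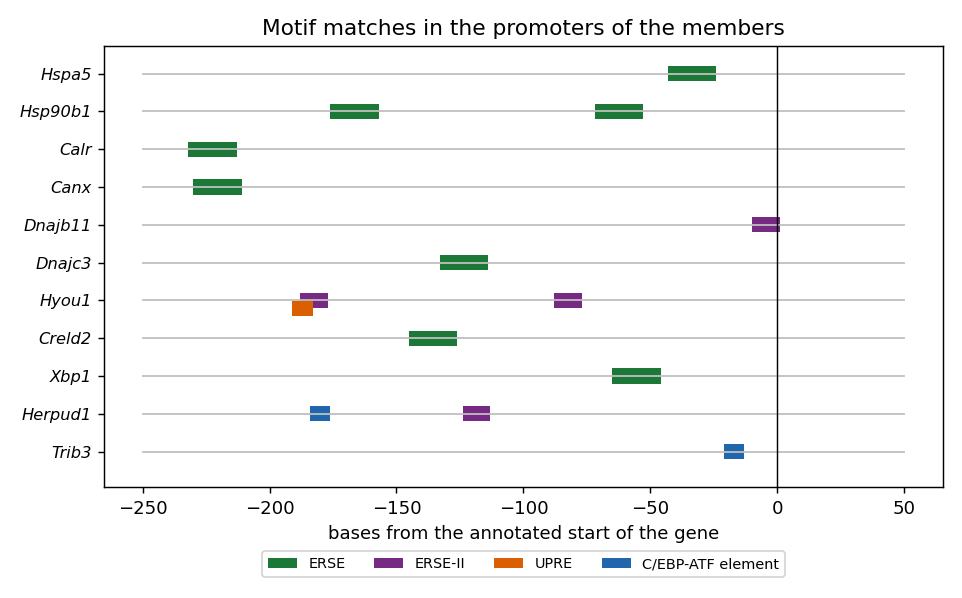
Position of the motif matches in the promoters of the 11 members that had any, in bases from the annotated start of the gene (vertical line at 0); bars span the match and colours give the motif. The ERSE matches begin between -232 and -43, and the pair in Hsp90b1 and the pair of ERSE-II matches in Hyou1 are the only repeats of a motif.

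Manf, a BiP-binding factor that is also secreted, gave the smallest p of the folding genes at 12 h. Its signal was 7364, 8296 and 9902 on EGF arrays and 4326, 4296 and 4270.3 on control arrays of 12 h. At 4 h the values were 8701, 9701 and 10129 with EGF and 7822, 9394 and 7638 in controls. All EGF arrays lay above all controls at 12 h, and the groups overlapped at 4 h. The log2 fold change of Manf was 0.20 ± 0.13 (adjusted p = 0.296) at 4 h and 0.97 ± 0.13 (adjusted p = 8.73e-05) at 12 h, a difference of 0.77 ± 0.19 (adjusted p = 0.0186). The difference was lost after median centring and without EGF replicate 1 or control replicate 2 of 4 h, with adjusted p up to 0.0800.

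P4hb, a disulfide isomerase that is also the beta subunit of the collagen prolyl hydroxylase, had signals of 54801, 84198 and 58537 with EGF and 36622, 35684 and 35790.1 in controls at 12 h. The 3 control arrays lay close together and the 3 EGF arrays all lay above them. Its log2 fold change was 0.32 ± 0.15 (adjusted p = 0.144) at 4 h and 0.84 ± 0.15 (adjusted p = 0.00084) at 12 h, with a difference of 0.52 ± 0.22 (adjusted p = 0.147). Hsp90b1, the ER form of Hsp90 (GRP94), had 18572, 20936 and 30355 with EGF and 14272, 15863 and 14459.9 in controls at 12 h. EGF replicate 3 was the highest of these, and its removal left a log2 fold change of 0.41 (adjusted p = 0.0145). With all arrays it was -0.18 ± 0.16 (adjusted p = 0.443) at 4 h and 0.62 ± 0.16 (adjusted p = 0.00904) at 12 h, a difference of 0.80 ± 0.23 (adjusted p = 0.0379). That difference passed under 11 of 23 alternatives and was lost without an intensity trend, after median centring, and without 8 of the single arrays in turn, with adjusted p up to 0.0931.

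Hyou1, the exchange factor of BiP known as GRP170, rested most on EGF replicate 3. It had 2497, 2526 and 7449 with EGF and 1389.8, 1622 and 1254 in controls at 12 h, so that array stood apart from the other 2 EGF arrays, which still lay above every control. In log2 terms the effect of EGF was -0.13 ± 0.33 (adjusted p = 0.815) at 4 h and 1.34 ± 0.33 (adjusted p = 0.00671) at 12 h, a difference of 1.47 ± 0.47 (adjusted p = 0.0624). Without EGF replicate 3 the 12 h value was 0.82 (adjusted p = 0.00278) and the difference 0.95 (adjusted p = 0.0175). A dimmer probe set of Hyou1 gave 0.92 ± 0.55 (adjusted p = 0.207) at 12 h.

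Dnajc3, a co-chaperone of BiP (p58IPK), had 5291, 5922 and 3833 with EGF and 3309, 3272 and 3431 in controls at 12 h, with no overlap. As log2 fold changes, the effects of EGF were 0.10 ± 0.15 (adjusted p = 0.673) at 4 h and 0.56 ± 0.15 (adjusted p = 0.0106) at 12 h, a difference of 0.46 ± 0.21 (adjusted p = 0.19). Without EGF replicate 2 of 12 h the value there was 0.43 (adjusted p = 0.0514). Without EGF replicate 3 it was 0.74 (adjusted p = 0.000145), and the difference was 0.64 (adjusted p = 0.0115). The isomerase Pdia3, which works with the lectins Calr and Canx on glycoproteins, had a log2 fold change of -0.04 ± 0.13 (adjusted p = 0.842) at 4 h and 0.43 ± 0.13 (adjusted p = 0.0202) at 12 h, with a difference of 0.48 ± 0.19 (adjusted p = 0.12). The 12 h call did not hold without EGF replicate 3, where the value was 0.32 (adjusted p = 0.0522), without control replicate 1, or with only the arrays compared, nor on a dimmer probe set of the gene, where it was 0.00 ± 0.17 (adjusted p = 0.995).

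The folding genes that fell were Dnajb9 at both times and Pdia4 at 4 h. Dnajb9 encodes ERdj4, a co-chaperone that returns the sensor IRE1 to its resting state. Its signal was 4152, 3348 and 3621 with EGF and 5610.3, 6508 and 6236 in controls at 4 h, and 3533, 2739 and 4033 with EGF and 4662, 4545 and 6042 in controls at 12 h. All EGF arrays lay below all controls of their time. Its log2 fold change came to -0.72 ± 0.16 (adjusted p = 0.00514) at 4 h and -0.57 ± 0.16 (adjusted p = 0.0158) at 12 h, with a difference of 0.15 ± 0.23 (adjusted p = 0.72). Pdia4, a disulfide isomerase, had 7861, 8558 and 7664 with EGF and 12705, 12099.9 and 9398 in controls at 4 h, without overlap. Its log2 fold change was -0.49 ± 0.13 (adjusted p = 0.014) at 4 h and 0.17 ± 0.13 (adjusted p = 0.333) at 12 h, and the difference between them was 0.67 ± 0.19 (adjusted p = 0.0366). The 4 h call of Pdia4 was lost after median centring and without control replicate 1 or 2, and its difference passed under 10 of 23 alternatives, with adjusted p up to 0.217. Median centring ended both calls of Dnajb9, and the 12 h call was also lost with only the arrays compared, without control replicate 3 and without EGF replicate 2 (adjusted p up to 0.0818).

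The other 7 folding genes passed at neither time. They were Hspa5, the isomerase Pdia6, the lectins Calr and Canx, the co-chaperone Dnajb11, its partner Sdf2l1, and Creld2, an ER protein induced by stress. Their log2 fold changes lay between -0.31 in Sdf2l1 and 0.17 in Hspa5 at 4 h, and between -0.15 in Canx and 0.53 in Calr at 12 h. Calr, which also stores calcium, had 13189, 15475 and 31462 with EGF and 12941, 13474 and 12105 in controls at 12 h. EGF replicate 3 alone was far above the controls, and without it the log2 fold change was 0.16 (adjusted p = 0.32) in place of 0.53 ± 0.24 (adjusted p = 0.094). Pdia6 and Dnajb11 passed at 12 h once that array was left out, with values of 0.32 (adjusted p = 0.0332) and 0.39 (adjusted p = 0.0179).

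Both subunits of the translocation channel that were on the member list were higher with EGF at 12 h. Sec61b had 21612, 27005 and 20626 with EGF and 14271, 13750.4 and 15159 in controls, and Sec61a1, the pore subunit, had 12957, 17539.9 and 14568 with EGF and 9691, 10401 and 8507 in controls. In each gene the 3 EGF arrays lay above the 3 controls. For Sec61b, the log2 ratio of EGF over control was -0.18 ± 0.13 (adjusted p = 0.353) at 4 h and 0.67 ± 0.13 (adjusted p = 0.00131) at 12 h, a difference of 0.85 ± 0.18 (adjusted p = 0.0104) that was lost after median centring (adjusted p = 0.0693). The ratio for Sec61a1 was 0.15 ± 0.14 (adjusted p = 0.452) at 4 h and 0.65 ± 0.14 (adjusted p = 0.00231) at 12 h, a difference of 0.50 ± 0.19 (adjusted p = 0.121), and a dimmer probe set of the gene gave 1.06 ± 0.37 (adjusted p = 0.041) at 12 h. On that probe set the signals at 12 h were 1600, 1723 and 5996.5 with EGF and 1377, 1433 and 908 in controls. Its value thus rested most on EGF replicate 3.

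Among the transducers, Xbp1 was the only member outside the ATF4 arm that rose at 4 h. The transcription factor it encodes becomes active when IRE1 splices its mRNA, and the probe set does not tell the spliced from the unspliced form. The signal of Xbp1 was 19994, 19563 and 17458 with EGF and 14107, 14082 and 11892 in controls at 4 h. At 12 h it was 24161, 26357 and 20823 with EGF and 13942, 14028 and 14562 in controls. All EGF arrays lay above all controls at both times, and the control arrays of the 2 times overlapped. This was a log2 fold change of 0.51 ± 0.12 (adjusted p = 0.00702) at 4 h and 0.74 ± 0.12 (adjusted p = 0.000383) at 12 h, with a difference of 0.23 ± 0.17 (adjusted p = 0.434). The 250 bases before the annotated start of Xbp1, RefSeq GRCr8 chr14:84604373-84604622, plus strand, hold an ERSE, in capitals. Whether that element has a part in the change of Xbp1 was not tested.
Xbp1: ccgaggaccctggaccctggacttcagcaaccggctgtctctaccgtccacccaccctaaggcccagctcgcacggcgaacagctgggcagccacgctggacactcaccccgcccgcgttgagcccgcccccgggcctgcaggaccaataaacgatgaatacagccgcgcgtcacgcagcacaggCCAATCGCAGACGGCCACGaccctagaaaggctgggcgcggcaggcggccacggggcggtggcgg

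Eif2ak3 encodes PERK, the sensor kinase that phosphorylates eIF2. It had 1092, 1188 and 1350.0 with EGF and 2182, 1492 and 1615 in controls at 4 h, and 1963, 2009 and 4215 with EGF and 1128, 1330.2 and 1220.0 in controls at 12 h. The EGF arrays lay below the controls at 4 h, a difference that did not pass the test, and above them at 12 h, with EGF replicate 3 the highest. The log2 fold change was -0.52 ± 0.26 (adjusted p = 0.153) at 4 h and 1.05 ± 0.26 (adjusted p = 0.00593) at 12 h, a difference of 1.57 ± 0.36 (adjusted p = 0.0138). Without EGF replicate 3 of 12 h the values were -0.52 (adjusted p = 0.0182) at 4 h and 0.69 (adjusted p = 0.00689) at 12 h. Atf6, the sensor that becomes a transcription factor when cleaved, had log2 fold changes of 0.03 ± 0.21 (adjusted p = 0.939) and 0.49 ± 0.21 (adjusted p = 0.0853) at 4 h and 12 h, although its 3 EGF arrays of 12 h, 4635, 4231 and 4649.5, all lay above the controls, 3229, 3308 and 3070.1.

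The degradation genes did not move together. Herpud1, which organises the membrane complex that passes misfolded proteins out of the ER, fell at both times. Its signal was 1956, 1649 and 1568 with EGF and 5471, 4617 and 5038 in controls at 4 h. At 12 h it was 3376, 3816 and 1880.4 with EGF and 6453, 7177 and 8967 in controls. No EGF array reached the lowest control of its time. EGF gave a log2 fold change of -1.54 ± 0.22 (adjusted p = 0.000206) at 4 h and -1.36 ± 0.22 (adjusted p = 0.000372) at 12 h, a difference of 0.18 ± 0.32 (adjusted p = 0.765). The 12 h value was -1.05 without EGF replicate 3 (adjusted p = 7.63e-05). Herpud1 was the only fall of 4 h among the members that passed under every alternative tried. The 250 bases before its annotated start, RefSeq GRCr8 chr19:10614708-10614957, minus strand, hold an ERSE-II and, on the opposite strand, the C/EBP-ATF element TGATGNAA to which ATF4 can bind, both in capitals.
Herpud1: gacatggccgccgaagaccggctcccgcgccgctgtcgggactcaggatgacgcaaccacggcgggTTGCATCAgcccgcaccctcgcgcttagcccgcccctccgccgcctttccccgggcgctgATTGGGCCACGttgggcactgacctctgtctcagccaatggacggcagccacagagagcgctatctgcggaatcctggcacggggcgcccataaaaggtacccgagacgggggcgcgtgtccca

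Edem1, a lectin that picks mannose-trimmed glycoproteins for degradation, had 11070.3, 9795 and 6337 with EGF and 4453, 3454 and 3986 in controls at 12 h. All 3 EGF arrays lay above the controls, with EGF replicate 3 the lowest of them. As log2 fold changes, the effects of EGF were 0.33 ± 0.20 (adjusted p = 0.25) at 4 h and 1.16 ± 0.20 (adjusted p = 0.000514) at 12 h, a difference of 0.83 ± 0.28 (adjusted p = 0.0759). Without EGF replicate 3 of 12 h, the 12 h value was 1.40 (adjusted p = 6.83e-06) and the difference 1.07 (adjusted p = 0.00322). The 2 dimmer probe sets of Edem1 gave 0.89 ± 0.18 (adjusted p = 0.00166) and 1.44 ± 0.32 (adjusted p = 0.00325) at 12 h.

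Sel1l, the adaptor of the ubiquitin ligase Syvn1 (HRD1), was lower with EGF at 4 h and higher at 12 h. It had 1874, 1718 and 2111 with EGF and 3247, 2998 and 3186 in controls at 4 h, and 952, 936 and 1561 with EGF and 613, 755 and 788 in controls at 12 h. All arrays of 12 h, with or without EGF, lay below the lowest EGF array of 4 h. In log2 terms the effect of EGF was -0.72 ± 0.20 (adjusted p = 0.0142) at 4 h and 0.63 ± 0.20 (adjusted p = 0.0235) at 12 h, a difference of 1.35 ± 0.28 (adjusted p = 0.0075). The 12 h call was lost without EGF replicate 3, where the value was 0.39 (adjusted p = 0.0653), without control replicate 1 and with only the arrays compared, and the 4 h call was lost after median centring and without EGF replicate 2. Syvn1 and the channel proteins Derl1 and Derl2 passed at neither time, with log2 fold changes from -0.23 to -0.03 at 4 h and from -0.04 to 0.31 at 12 h.

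In the ATF4 arm, 3 of 10 genes were higher and 2 lower at 4 h, and 7 were higher and 1 lower at 12 h. The shares were 30% and 20% at 4 h, against 12.8% and 19.6% of all genes, and 70% and 10% at 12 h, against 16.5% and 24.2%. The median log2 fold change of the arm was -0.10 at 4 h and 0.93 at 12 h. Atf4, the transcription factor of the arm, had signals of 29846, 30056 and 25269 with EGF and 21836, 20919 and 18770.1 in controls at 4 h. At 12 h it had 13696, 16064 and 25346 with EGF and 5384, 5604 and 5919 in controls. The groups did not overlap at either time, and the controls of 12 h were the lowest of the 12 arrays. Its log2 fold change came to 0.47 ± 0.18 (adjusted p = 0.0752) at 4 h and 1.65 ± 0.18 (adjusted p = 1.44e-05) at 12 h, with a difference of 1.18 ± 0.26 (adjusted p = 0.0107). Without EGF replicate 3 of 12 h, the values were 0.47 (adjusted p = 0.00348) at 4 h and 1.39 (adjusted p = 5.4e-07) at 12 h. With the replicate number as a block, Atf4 also passed the test at 4 h (adjusted p = 0.0432). Whether the numbers pair the arrays is uncertain, since unlike-numbered arrays among replicates 1 and 2 correlated about as well.

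The amino acid transporters did not move together. Slc7a11, the cystine and glutamate exchanger that feeds glutathione synthesis, had 3088, 2173 and 2453 with EGF and 792, 966 and 968 in controls at 4 h, and 1843, 1337 and 1158 with EGF and 278, 168 and 216 in controls at 12 h. Every EGF array exceeded every control of its time. The log2 fold change was 1.47 ± 0.23 (adjusted p = 0.000341) at 4 h and 2.58 ± 0.23 (adjusted p = 1.63e-06) at 12 h, the highest of the members at 12 h, with a difference of 1.12 ± 0.32 (adjusted p = 0.0395). Its controls of 12 h averaged 220.5, near the limit of 215.4 on dim probe sets, and the 12 h value ran from 2.27 to 2.75 over the alternatives. The difference passed under 9 of 23 alternatives and was lost with an offset at the 25th percentile, with no filter, under both other scalings, and without most single arrays, with adjusted p up to 0.125. Slc7a5, which carries large neutral amino acids (LAT1), had 9136, 8886 and 5482 with EGF and 3284, 2537 and 2085 in controls at 4 h, and 1172, 1431 and 2119.6 with EGF and 566, 527 and 411 in controls at 12 h. The groups were again apart, and EGF replicates 1 and 2 of 12 h lay below all controls of 4 h. The log2 fold change of Slc7a5 was 1.55 ± 0.25 (adjusted p = 0.000536) at 4 h and 1.57 ± 0.25 (adjusted p = 0.000329) at 12 h, a difference of 0.02 ± 0.36 (adjusted p = 0.977).

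Slc3a2 encodes the heavy chain that both Slc7a11 and Slc7a5 need to reach the cell surface, and it was the 1 member whose EGF effect turned lower between the times. Its signal was 12387, 13739 and 12346 with EGF and 14867, 13079 and 12592 in controls at 4 h. At 12 h it was 10154, 9177 and 7546 with EGF and 15737, 14469 and 15408 in controls. The groups overlapped at 4 h, and all EGF arrays lay below all controls at 12 h. On the log2 scale EGF over control was -0.07 ± 0.13 (adjusted p = 0.719) at 4 h and -0.77 ± 0.13 (adjusted p = 0.000388) at 12 h, a difference of -0.70 ± 0.18 (adjusted p = 0.0244). The difference passed under 15 of 23 alternatives and was lost after median centring, without an intensity trend, without the replicate 3 pair of 4 h, and without EGF replicate 2 or control replicate 2 or 3 of 4 h or control replicate 1 or 3 of 12 h, with adjusted p up to 0.0700.

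Ppp1r15a encodes GADD34, which brings a phosphatase to eIF2 and so ends the arrest of translation. It had 4674, 4521 and 4126 with EGF and 1647, 1595 and 1753 in controls at 4 h, and 1695, 1769.9 and 2518 with EGF and 1298, 1254 and 965 in controls at 12 h. EGF arrays lay above controls at both times. EGF gave a log2 fold change of 1.40 ± 0.17 (adjusted p = 4.85e-05) at 4 h and 0.74 ± 0.17 (adjusted p = 0.00423) at 12 h. The difference of -0.66 ± 0.24 (adjusted p = 0.102) did not pass the test, and without EGF replicate 3 of 12 h it was -0.84 (adjusted p = 0.0109).

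Trib3, a pseudokinase that ATF4 and DDIT3 induce and that holds back both, had the largest difference between the times among the 36 members. It had 919, 813 and 585 with EGF and 2011, 1004 and 2104 in controls at 4 h. It had 1776, 1531 and 735 with EGF and 522, 474 and 334 in controls at 12 h. The EGF arrays all lay below the controls at 4 h and above them at 12 h, with EGF replicate 3 the lowest of its group at both times. In log2 terms the effect of EGF was -1.07 ± 0.35 (adjusted p = 0.0349) at 4 h and 1.48 ± 0.35 (adjusted p = 0.00459) at 12 h, a difference of 2.55 ± 0.49 (adjusted p = 0.0051). The 12 h value was 1.86 without EGF replicate 3 of 12 h (adjusted p = 0.000209). All 3 probe sets of Trib3 gave these directions, with -1.07, -1.25 and -1.37 at 4 h and 1.48, 1.80 and 2.41 at 12 h. The 4 h call on the brightest probe set, whose name marks probes that match more than 1 transcript, passed under 18 of 25 alternatives. It was lost after median centring, without an intensity trend, without the replicate 3 pair of 4 h (-0.70, adjusted p = 0.288), and without EGF replicate 2 or 3 or control replicate 1 or 3 of 4 h. The 250 bases before the annotated start of Trib3, RefSeq GRCr8 chr3:161275534-161275783, minus strand, hold the C/EBP-ATF element on the opposite strand, in capitals.
Trib3: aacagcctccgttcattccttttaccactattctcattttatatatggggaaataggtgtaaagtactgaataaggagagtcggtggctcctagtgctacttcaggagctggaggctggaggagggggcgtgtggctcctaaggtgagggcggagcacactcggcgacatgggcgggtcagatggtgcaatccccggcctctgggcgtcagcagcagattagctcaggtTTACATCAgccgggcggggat
Among the members with a promoter in the table, that element stood in Trib3 and Herpud1, and in 1332 of all promoters, 3.98%.

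The enzymes of amino acid synthesis split as well. Asns, asparagine synthetase, had 4430.5, 4029 and 5203 with EGF and 5769.9, 5430.2 and 6052 in controls at 4 h, and 3341, 3301 and 2199.6 with EGF and 1889, 1646 and 1226 in controls at 12 h. The EGF arrays lay below the controls at 4 h and above them at 12 h, and only the difference at 12 h passed the test. The log2 fold change was -0.34 ± 0.19 (adjusted p = 0.211) at 4 h and 0.88 ± 0.19 (adjusted p = 0.00285) at 12 h, a difference of 1.22 ± 0.27 (adjusted p = 0.0112). Psat1, the aminotransferase of serine synthesis, had a log2 fold change of -0.13 ± 0.17 (adjusted p = 0.616) at 4 h and 0.97 ± 0.17 (adjusted p = 0.000668) at 12 h, a difference of 1.11 ± 0.25 (adjusted p = 0.011). Phgdh, the first enzyme of the same pathway, had 3414, 4459.7 and 3543 with EGF and 6074, 6178 and 6029 in controls at 4 h, and 4373, 4412 and 2522 with EGF and 5351, 5420.0 and 4428 in controls at 12 h. All its EGF arrays lay below the controls of their time. For Phgdh, the log2 ratio of EGF over control was -0.69 ± 0.20 (adjusted p = 0.0185) at 4 h and -0.46 ± 0.20 (adjusted p = 0.0808) at 12 h, a difference of 0.22 ± 0.28 (adjusted p = 0.659). The 4 h call passed under 18 of 24 alternatives and was lost after median centring, without the replicate 3 pair, and without EGF replicate 1 or 3 or control replicate 1 or 2, with adjusted p up to 0.153. The 12 h value without EGF replicate 3 was -0.20 (adjusted p = 0.27).

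Ddit3, the transcription factor CHOP that prolonged ER stress induces, passed at neither time, with log2 fold changes of -0.46 ± 0.17 (adjusted p = 0.0624) at 4 h and 0.14 ± 0.17 (adjusted p = 0.569) at 12 h. Its 3 EGF arrays of 4 h, 2041, 1948 and 2119, lay below the controls, 2491, 2534 and 3512. Without EGF replicate 3 of 12 h, the 4 h value of -0.46 passed the test (adjusted p = 0.0369).

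**Figure D3:**
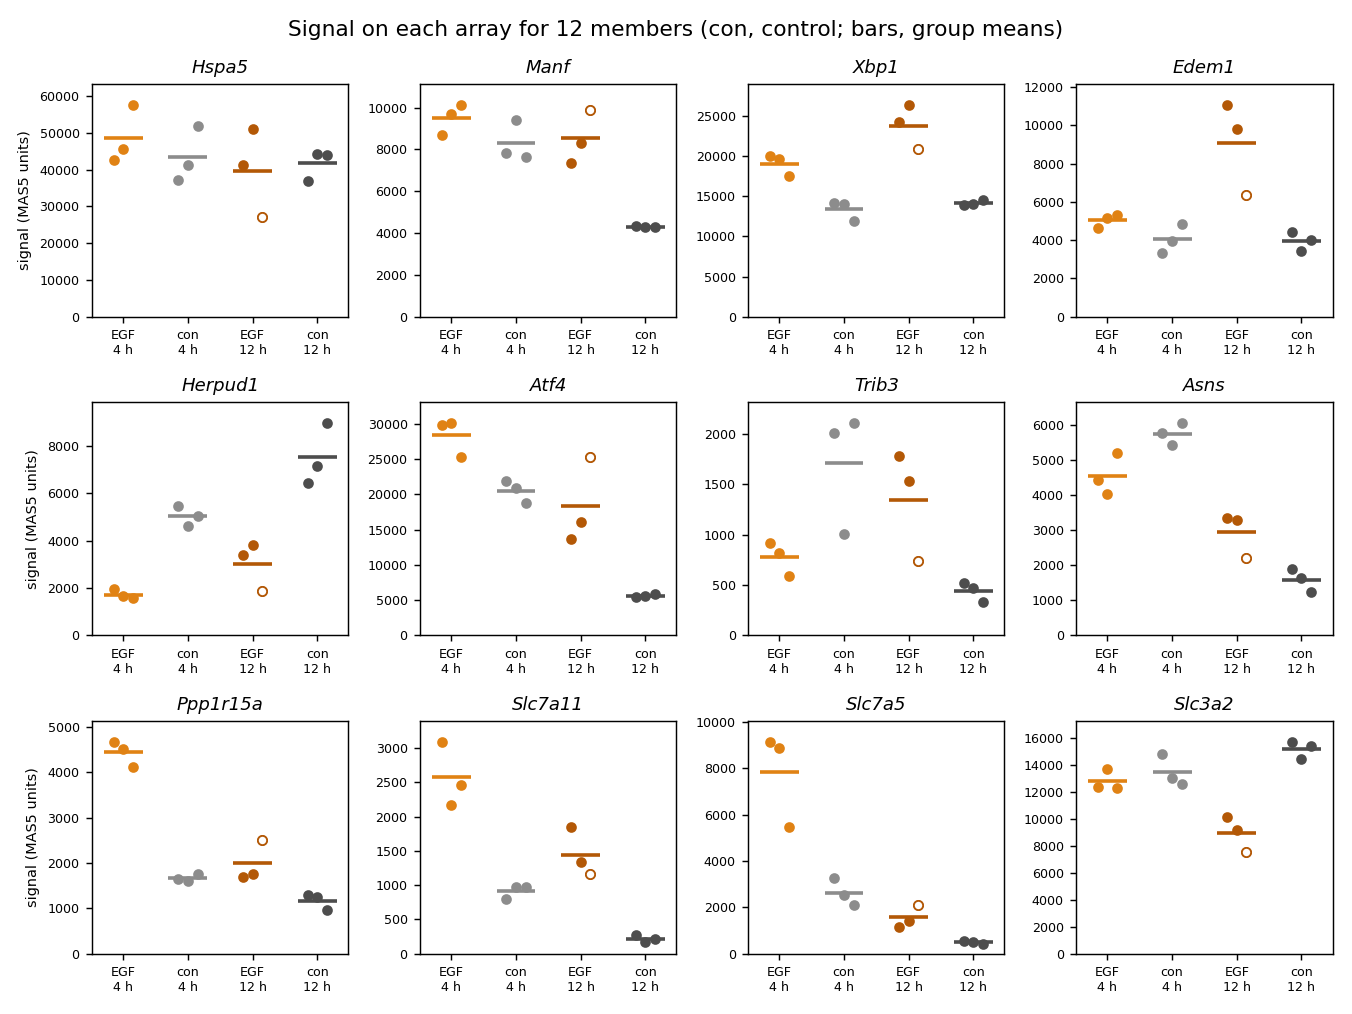
Signal on each of the 12 arrays for 12 members, by group (con, control); points are arrays, bars are group means over 3 arrays, and the open point is EGF replicate 3 of 12 h. Slc7a11 stands above its controls at both times, Herpud1 below them, Hspa5 overlaps them, and Trib3 lies below its controls at 4 h and above them at 12 h.

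The controls of the 2 times differed in many members. This comparison shares its arrays with both EGF effects, so its values are set beside theirs and not read as separate support. In controls of 12 h, 2 members were higher than in controls of 4 h, 5.56%, against 28.4% of all genes, and 15 were lower, 41.7%, against 16.6%. The members' median log2 fold change was -0.28 and that of all genes 0.17. In the ATF4 arm 8 of 10 genes, 80%, were lower and the other 2 did not pass, with a median of -1.48. Of the 15 folding genes 5 were lower, 33.3%, and 1 higher, 6.67%, with a median of -0.15. The controls of 12 h all carried the high actin 3' to 5' ratio and those of 4 h did not, so the time, the set of arrays and the reach of the labelled RNA cannot be told apart.

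The largest falls in controls of 12 h against controls of 4 h were those of Slc7a5 (-2.33 ± 0.25, adjusted p = 2.79e-05), Sel1l (-2.10 ± 0.20, adjusted p = 7.96e-06), Slc7a11 (-1.95 ± 0.23, adjusted p = 4.6e-05), Atf4 (-1.86 ± 0.18, adjusted p = 1.18e-05), Asns (-1.86 ± 0.19, adjusted p = 1.65e-05) and Trib3 (-1.84 ± 0.35, adjusted p = 0.00113). Next came Psat1 at -1.12 ± 0.17 (adjusted p = 0.000308) and Ddit3 at -1.09 ± 0.17 (adjusted p = 0.000356). The 5 folding genes that were lower had log2 fold changes of -1.05 ± 0.16 (adjusted p = 0.000295) in Hsp90b1, -1.05 ± 0.24 (adjusted p = 0.00314) in Calr, -0.96 ± 0.33 (adjusted p = 0.0315) in Hyou1, -0.94 ± 0.13 (adjusted p = 0.000186) in Manf and -0.64 ± 0.13 (adjusted p = 0.00189) in Pdia3. Sec61b (-0.38 ± 0.13, adjusted p = 0.0289) and Ppp1r15a (-0.51 ± 0.17, adjusted p = 0.0282) were lower too. Creld2 (0.65 ± 0.21, adjusted p = 0.0235) and Derl1 (0.64 ± 0.16, adjusted p = 0.00683) were the 2 members that were higher. Of the 17 calls 11 held under every alternative. Those of Hyou1, Creld2, Sec61b and Ppp1r15a were lost on leaving out single arrays, with adjusted p up to 0.096, 0.0691, 0.295 and 0.124 over the alternatives, and those of Pdia3 and Derl1 on another probe set. Several members with an EGF call did not pass between the controls. Among the folding genes these were P4hb (-0.29 ± 0.15, adjusted p = 0.144), Dnajb9 (-0.28 ± 0.16, adjusted p = 0.187), Dnajc3 (-0.11 ± 0.15, adjusted p = 0.58) and Pdia4 (0.00 ± 0.13, adjusted p = 0.985). The translocation gene Sec61a1 (-0.33 ± 0.14, adjusted p = 0.0645) and the transducers Xbp1 (0.09 ± 0.12, adjusted p = 0.572) and Eif2ak3 (-0.50 ± 0.26, adjusted p = 0.127) did not pass either. The same held for Herpud1 (0.57 ± 0.22, adjusted p = 0.0536), Edem1 (-0.02 ± 0.20, adjusted p = 0.941), Phgdh (-0.27 ± 0.20, adjusted p = 0.275) and Slc3a2 (0.17 ± 0.13, adjusted p = 0.286). By array, 20 members had all controls of 12 h below all controls of 4 h, 3 had them above, and 13 overlapped. Those are 55.6% and 8.33% of the members, against 23.4% and 39.4% of all genes tested.

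For some rises at 12 h, the mean with EGF did not exceed the mean of the controls of 4 h. Atf4 averaged 18369 ± 6157 with EGF for 12 h and 20509 ± 1574 in controls of 4 h, and Asns averaged 2947 ± 648 with EGF for 12 h and 5751 ± 312 in controls of 4 h (SD, n = 3 each). Slc7a5 averaged 1574 ± 489.9 with EGF for 12 h and 2635 ± 606 in controls of 4 h. The same held for Hsp90b1 (23287.5 against 30858.3), Pdia3 (33173.4 against 38047), Sel1l (1149.6 against 3143.9), Trib3 (1347.5 against 1706.2) and Psat1 (3831.3 against 4195.1). In the other members called higher at 12 h the mean with EGF lay above, by little in Manf (8520.5 against 8284.9). Xbp1 and Edem1 were also among those above, with 23780.3 ± 2787 and 9068 ± 2449 with EGF for 12 h. Their controls of 4 h averaged 13360.5 ± 1272 and 4048 ± 765. Without EGF replicate 3 of 12 h, the mean with EGF lay below the controls of 4 h in Manf (7829.8) and Hyou1 (2511.6 against 2806.9). In Psat1 it then lay just above them (4212.2 against 4195.1). These groups differ in time and in the readings of the control probe sets, and the values are set side by side without a test.

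**Figure D4:**
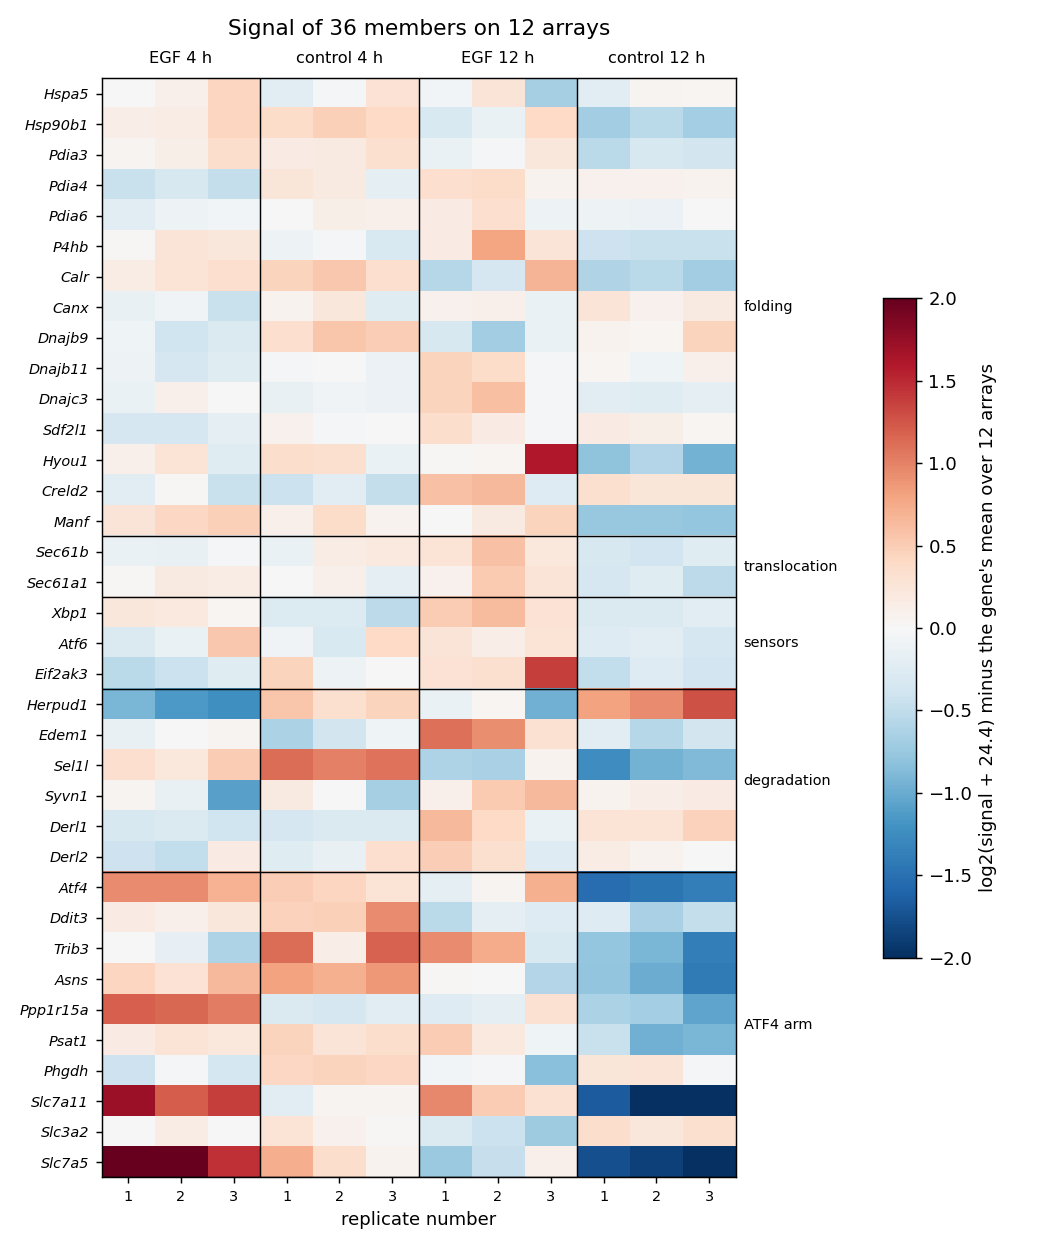
Log2(signal + 24.4) of each member on each array, minus the gene's mean over the 12 arrays, by group and replicate number, with colours that saturate at -2 and 2. In the controls of 12 h, 8 of the 10 genes of the ATF4 arm are blue, and EGF replicate 3 of 12 h differs from the other 2 arrays of its group in Hyou1, Eif2ak3, Calr and Herpud1.

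Other probe sets of the same genes differed more between the controls. Of the 36 members, 9 had more than 1 tested probe set, with 13 probe sets besides the brightest. In controls of 12 h against controls of 4 h, 11 of the 13 had a lower log2 fold change than the brightest of their gene, and 12 lay below 0. The 3 probe sets of Canx gave 0.15 ± 0.14 on the brightest, -0.55 ± 0.12 and -3.05 ± 0.53. The 3 of Derl1 gave 0.64 ± 0.16 on the brightest, -0.18 ± 0.18 and -1.62 ± 0.37, so the rise of Derl1 is that of 1 probe set. On the dimmest probe set of Canx, EGF replicate 3 of 12 h had a signal of 8038, against 1089 and 1171 on EGF replicates 1 and 2 and 1002, 1307 and 1203 in controls of 12 h. That array and the 4 h controls, at 10728, 9020.1 and 9695, had the low actin ratios, and the other arrays of 12 h the high ones.

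**Figure D5:**
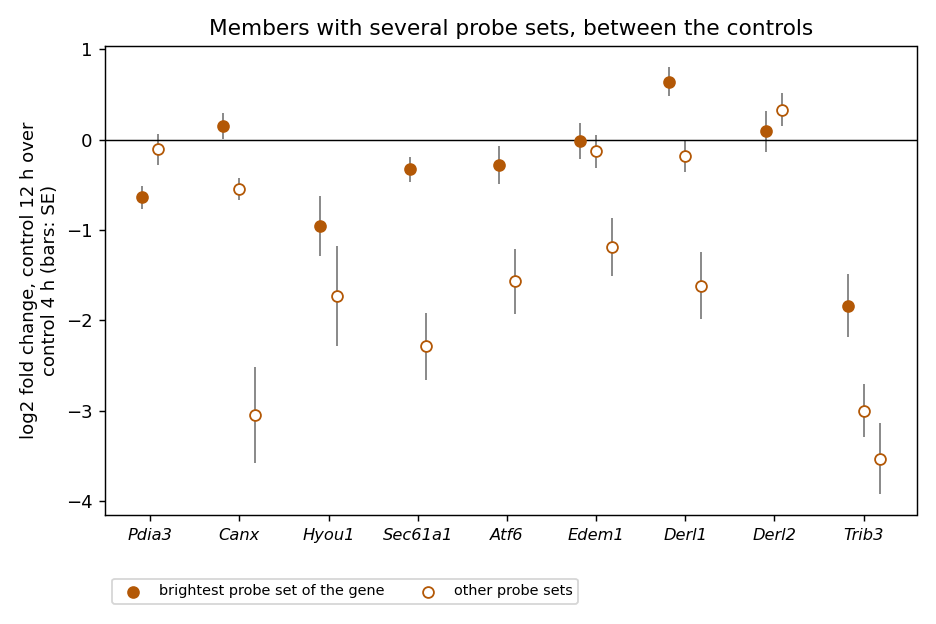
Log2 fold change of control of 12 h over control of 4 h, with SE bars, for each tested probe set of the 9 members with more than 1; filled points are the brightest probe set of the gene. Open points lie below the filled one in 11 of 13 cases, by the most in Canx.

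Beyond the members, 149 further genes of the same pathways were listed, of which 143 had a probe set and 135 were tested. These lists too were chosen with earlier results of these data known. At 4 h 12 of the 135 were higher with EGF and 17 lower, with a median log2 fold change of -0.12. These are 8.89% and 12.6%, below the 12.8% and 19.6% of all genes. At 12 h 53 were higher, 39.3% against 16.5% of all genes, and 13 lower, 9.63% against 24.2%, with a median of 0.33. The difference between the times was positive in 33, 24.4% against 6.55%, and negative in 3, 2.22% against 7.45%. In controls of 12 h against controls of 4 h, 18 were higher, 13.3% against 28.4%, and 56 lower, 41.5% against 16.6%.

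Among other folding and oxidation genes, 1 of 34 was higher and 4 lower at 4 h, and 7 were higher and 4 lower at 12 h. The 2.94% higher at 4 h lay below the 12.8% of all genes. The 20.6% higher at 12 h lay near the 16.5% of all genes, and the 11.8% lower at each time below the 19.6% and 24.2%. The prolyl isomerase gene Fkbp11 had 3969 ± 483 with EGF and 1276 ± 122 in controls at 12 h (SD, n = 3 each), a log2 fold change of 1.62 ± 0.14 (adjusted p = 1.24e-06). Calu, a calcium-binding protein of the secretory pathway, had a log2 fold change of 1.37 ± 0.14 (adjusted p = 7.78e-06) at 12 h. The oxidase gene Ero1a rose at 4 h (0.86 ± 0.23, adjusted p = 0.0138), and its relative Ero1b fell at 4 h (-0.61 ± 0.20, adjusted p = 0.0331) and 12 h (-1.74 ± 0.20, adjusted p = 1.54e-05). Fkbp9 fell at 12 h (-1.13 ± 0.16, adjusted p = 9.94e-05), and the peroxidase gene Prdx4 at 4 h (-0.39 ± 0.12, adjusted p = 0.0242). Fkbp14 was lower at 4 h (-0.60 ± 0.15, adjusted p = 0.00879) and higher at 12 h (0.47 ± 0.15, adjusted p = 0.0246), a difference of 1.07 ± 0.21 (adjusted p = 0.00587).

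Of 22 other genes of translocation and glycosylation, 1 passed at 4 h, where it was lower, and 11 were higher and 1 lower at 12 h. The shares higher and lower at 4 h were 0% and 4.55%, against 12.8% and 19.6% of all genes. The shares at 12 h were 50% and 4.55%, against 16.5% and 24.2% of all genes. Ssr1, a subunit of the translocon-associated complex, had 24658 ± 865 with EGF and 9495 ± 596 in controls at 12 h, a log2 fold change of 1.38 ± 0.11 (adjusted p = 9.84e-07). Sec11c, the catalytic subunit of signal peptidase, had a log2 fold change of 1.51 ± 0.13 (adjusted p = 1.32e-06). Sec62, a translocation factor, was the gene that fell, with -0.48 ± 0.13 (adjusted p = 0.012) at 4 h and -0.65 ± 0.13 (adjusted p = 0.00124) at 12 h.

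Other degradation genes had 2 of 18 higher and 3 lower at 4 h, and 7 higher and 3 lower at 12 h. The 4 h shares of 11.1% and 16.7% lay near those of all genes, 12.8% and 19.6%, and the 12 h shares were 38.9% and 16.7%, against 16.5% and 24.2%. The ubiquitin-conjugating enzyme gene Ube2g2 was higher at 4 h (1.22 ± 0.17, adjusted p = 0.000178) and 12 h (1.28 ± 0.17, adjusted p = 7.79e-05), and so was Nploc4, a cofactor of the extraction ATPase, at 0.45 ± 0.12 (adjusted p = 0.0158) and 0.66 ± 0.12 (adjusted p = 0.00104). Ngly1, which strips glycans from extracted proteins, was lower at 4 h (-1.27 ± 0.19, adjusted p = 0.000304) and 12 h (-1.22 ± 0.19, adjusted p = 0.000284), as was the lectin gene Erlec1 at -0.93 ± 0.16 (adjusted p = 0.000705) and -0.89 ± 0.16 (adjusted p = 0.00066). Of 18 other signalling genes, 3 were higher and 2 lower at 4 h, and 2 were higher and 2 lower at 12 h. At 4 h that is 16.7% and 11.1%, against 12.8% and 19.6% of all genes. At 12 h it is 11.1% in each direction, below the 16.5% and 24.2% of all genes. Creb3l2, a membrane-bound relative of Atf6, was higher at both times (0.85 ± 0.16, adjusted p = 0.00173 and 1.29 ± 0.16 (adjusted p = 4.37e-05)), and Eif2s1, the phosphorylated subunit of eIF2, likewise (0.65 ± 0.13, adjusted p = 0.00254 and 0.56 ± 0.13 (adjusted p = 0.00478)). The eIF2 kinase gene Eif2ak2 was lower at both times (-0.90 ± 0.14, adjusted p = 0.000389 and -0.55 ± 0.14 (adjusted p = 0.00789)), the apoptosis gene Bbc3 was lower at 4 h (-0.77 ± 0.19, adjusted p = 0.00937), and Nfe2l2, the factor NRF2, was lower at 12 h (-0.61 ± 0.13, adjusted p = 0.0031).

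Other targets of ATF4 went both ways. At 4 h 2 of 23 were higher and 5 lower, and at 12 h 11 were higher and 3 lower. The 4 h shares were 8.70% and 21.7%, against 12.8% and 19.6% of all genes, and the 12 h shares 47.8% and 13%, against 16.5% and 24.2%. The cationic amino acid transporter gene Slc7a1 had 6982 ± 2182 with EGF and 1424 ± 133 in controls at 4 h, and 5643 ± 422 with EGF and 452 ± 42.6 in controls at 12 h (SD, n = 3 each). Its log2 fold change was 2.22 ± 0.21 (adjusted p = 4.47e-06) at 4 h and 3.57 ± 0.21 (adjusted p = 3.85e-08) at 12 h. The glutamine transporter gene Slc1a5 rose at 4 h (1.79 ± 0.32, adjusted p = 0.00108) and 12 h (1.53 ± 0.32, adjusted p = 0.00238), and Mthfd2, an enzyme of mitochondrial folate metabolism, at 12 h (2.17 ± 0.24, adjusted p = 1.3e-05). Chac1, which degrades glutathione, was lower at 4 h (-1.05 ± 0.17, adjusted p = 0.000522) and did not pass at 12 h (0.12 ± 0.17, adjusted p = 0.616). The lipoprotein receptor gene Vldlr was lower at 4 h (-1.27 ± 0.17, adjusted p = 0.000111) and 12 h (-1.10 ± 0.17, adjusted p = 0.000257), and the mTORC1 regulator gene Sesn2 was lower at 4 h (-0.93 ± 0.20, adjusted p = 0.00327) and 12 h (-0.86 ± 0.20, adjusted p = 0.00402).

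The aminoacyl tRNA synthetases, which load tRNAs with amino acids and many of which ATF4 is known to induce, had 4 of 20 higher and 2 lower at 4 h. At 12 h 15 of 20 passed, each of them higher, 75% against 16.5% of all genes, with a median log2 fold change of 0.63. The 4 h shares were 20% and 10%, against 12.8% and 19.6%. Nars1 had 10686 ± 757 with EGF and 5254 ± 289.5 in controls at 12 h (SD, n = 3 each), a log2 fold change of 1.02 ± 0.11 (adjusted p = 1e-05), and 0.36 ± 0.11 (adjusted p = 0.0238) at 4 h. Cars1 had log2 fold changes of 0.61 ± 0.13 (adjusted p = 0.00323) at 4 h and 1.16 ± 0.13 (adjusted p = 1.46e-05) at 12 h. Yars1 was higher at 4 h (1.04 ± 0.18, adjusted p = 0.000793) and 12 h (0.63 ± 0.18, adjusted p = 0.0152), and so was Rars1 (0.59 ± 0.12, adjusted p = 0.00217 and 0.81 ± 0.12 (adjusted p = 0.000137)). Qars1 was lower at 4 h (-0.69 ± 0.13, adjusted p = 0.00152) and did not pass at 12 h (0.02 ± 0.13, adjusted p = 0.911). Aars1 was lower at 4 h (-0.54 ± 0.12, adjusted p = 0.00488) and higher at 12 h (0.44 ± 0.12, adjusted p = 0.0123).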

How the data were processed

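RNA of 12 astrocyte samples was measured on 1-colour arrays. The deposited intensity values are MAS5 signals, per the submitters' processing notes, with no version given in the sources used here. Their 2% trimmed means, from 1500.46 to 1500.56 per array, show a common scaling, and no further scaling was applied. The number of arrays limits the precision.

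Groups and replicate numbers came from the sample titles, since the description of every sample reads as control. The table held 31099 probe sets and 0 unused columns. After leaving out 57 control probe sets and those with a mean signal below 215.4 (40th percentile), 18625 were tested. limma 3.58.1 in R 4.3.3 fitted 4 group means to log2(signal + 24.4) with an intensity trend and 8 residual degrees of freedom. P values were two-sided and adjusted by Benjamini and Hochberg's method over all probe sets tested, with a threshold of 0.05. The fit was tested on simulated data. Plots were made in matplotlib 3.10.9.

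Gene names came from the annotation of the platform. Of the probe sets, 20832 carried 1 symbol, 436 several and 9831 none, and 20764 matched the current RefSeq table, with 0 symbols changed. The background shares are over the 10261 genes, each by its brightest probe set. Every member was named. Other pathway genes were named where they had up to the 2 smallest p values in each direction at a time. The members and lists were chosen with earlier results of these data known. The planned comparison of protein ends is not analysed here.

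Arrays with the same replicate number at 4 h correlated at 0.121, 0.15 and 0.376 after group means were taken out. At 12 h these values were 0.083, -0.111 and -0.103. By these values the numbers may pair the arrays at 4 h and do not at 12 h. The main fit used no pairing at either time. The replicate number entered only as a block among the alternatives, at both times. Pairing at 4 h is uncertain. There EGF replicate 1 correlated at 0.142 with control replicate 2, and EGF replicate 2 at 0.138 with control replicate 1. The 0.376 was that of the replicate 3 arrays, which had the high hybridisation control signals. Alternatives covered the offset, the filter, the scaling, the variance trend, the replicate number or the set of arrays as a block, each array left out, and the choice of probe set.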

Additional observations from a re-analysis of the deposited data

Results flagged for a closer look

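The effect of EGF differed between 12 h and 4 h in 12 members by the test of the difference itself, in the fit over all probe sets, with an adjusted p under 0.05. The difference of log2 fold changes, 12 h minus 4 h, was positive in 11 of them. In the ATF4 arm it was 2.55 in Trib3, 1.22 in Asns, 1.18 in Atf4, 1.12 in Slc7a11 and 1.11 in Psat1. It was 1.57 in the sensor kinase gene Eif2ak3 and 1.35 in the degradation gene Sel1l. In the folding genes it was 0.80 in Hsp90b1, 0.77 in Manf and 0.67 in Pdia4, and it was 0.85 in the translocation gene Sec61b. The 1 negative difference was that of Slc3a2, at -0.70. Those of Eif2ak3, Sel1l, Atf4, Trib3, Asns and Psat1 passed under every alternative tried. Of 23 alternatives, the difference passed under 22 in Sec61b, 20 in Manf, 15 in Slc3a2, 11 in Hsp90b1, 10 in Pdia4 and 9 in Slc7a11. The 2 effects were measured on different sets of arrays, so the time and the set cannot be told apart. With 3 arrays a group, no array was tested for standing apart from its group.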

How the results depend on the processing

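Of the calls, 5 of 10 at 4 h, 17 of 22 at 12 h, 6 of 12 for the difference and 11 of 17 between the controls held under every alternative. Shares of all genes are not given under the alternatives, so the counts that follow have no background beside them. Median centring left 1 member lower at 4 h, and 6 positive and 0 negative differences. The set of arrays as a block, which takes the 12 h effects without EGF replicate 3, gave 11 lower at 4 h, and 20 positive and 2 negative differences. Without an intensity trend there were 0 negative differences. With the mean of a gene's probe sets, or its second brightest one, 1 member was higher in controls of 12 h than in controls of 4 h. There Canx reversed to -1.15 and -0.55, and Derl1 to -0.39 and -0.18, under these 2 choices. Leaving out each array in turn gave 4 to 5 higher and 3 to 9 lower at 4 h, 17 to 20 higher and 2 to 4 lower at 12 h, 7 to 16 positive and 0 to 2 negative differences, and 1 to 3 higher and 12 to 17 lower between the controls. The count of 3 lower at 4 h was without control replicate 1. Without both replicate 3 arrays of 4 h, 0 differences were negative and 1 member was higher between the controls. With the replicate number as a block, 5 members were higher and 6 lower at 4 h, and 20 were higher and 4 lower at 12 h. Under that block 11 differences were positive and 1 negative. It added Atf4 at 4 h and ended no call. Mean signals of the 36 members by group were 443.1 or more, against the limit of 215.4 on dim probe sets, except in the 12 h controls of Slc7a11, at 220.5, so its fold at 12 h rests on dim values.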
